A study of Rattus norvegicus with 12 samples.

Results

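The genes described here encode the proteins of the mitochondrial ribosome. They were taken by symbol, as every named gene whose symbol begins with Mrpl or Mrps followed by a digit, with no use of measured values. Of 14217 named genes on the array, 73 were members. They were represented by 97 probe sets, of which the brightest was used for each gene. By their place in the assembled particle 48 belong to the large subunit and 25 to the small subunit. Of 77 such genes listed for rat, Mrpl9, Mrpl11, Mrpl24 and Mrps10 were not analysed here.

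Liver RNA came from 12 male Wistar rats aged 5 weeks, and all were first given the purified AIN93G diet for 4 days. In 6 rats the diet then held 20% maple syrup for 11 days, and in the other 6 it held 20% of a sugar mix syrup of similar sugar composition. All were fasted for 16 hours before the livers were taken. The labels count 7 rats fed maple syrup and 8 fed sugar mix, and call each array a biological replicate, without an account of litters or cages. Both diets were sugar-rich and both groups were fasted, so neither stands for an untreated or a fed liver.

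The mitochondrial ribosome translates the few messages encoded by mitochondrial DNA, all of which are subunits of the oxidative phosphorylation complexes. Its RNA comes from mitochondrial DNA, whereas its proteins are encoded in the nucleus, made in the cytosol and imported. Part of the proteins have bacterial counterparts and the rest were added in the mitochondrial lineage. Liver is rich in mitochondria, and its energy-demanding work during a fast, such as glucose and urea production, rests on them.

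The members' start regions are scattered over 18 chromosomes among the 59 members matched by symbol to RefSeq windows of build GRCr8. These windows run from 250 bases before to 50 bases after the annotated start. NRF1, GABP and YY1 are transcription factors known for binding near genes of mitochondrial proteins, so the cores of their sites were searched on both strands. The NRF1 core, GCATGCGC or GCGCATGC, was found in 5 of 59 member windows (8.47%), against 4.3% of 11733 measured genes and 2.47% of all 33469 windows. The GABP core, CCGGAAGT or ACTTCCGG, was in 8 members (13.6%), against 6.84% of measured genes and 3.81% of all windows. The YY1 core, AAGATGGCG or CGCCATCTT, was also in 8 members (13.6%), against 3.14% of measured genes and 1.73% of all windows. In the 69 windows of nuclear oxidative phosphorylation subunits the shares were 10.1% for NRF1, 11.6% for GABP and 14.5% for YY1. The NRF1 core is nearly its own reverse complement, so overlapping matches on both strands fall on the same stretch. No match was found for these 3 cores in 39 of the 59 windows. Also searched were GGGCGG or CCGCCC, the core bound by SP factors, found in 50.8% of member windows and 57.5% of those of measured genes, and TATAAA or TTTATA, found in 11.9% and 8.45%. These shares describe the letters in the windows and were not tested.

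The 6 windows below were chosen after the values were seen. Mrpl17 and Mrps18b vary together most closely among pairs that both hold an NRF1 core, Mrps27 holds both a GABP and a YY1 core, Mrpl46 starts head to head with another member, and Mrpl12 and Mrps2 lie near the top and at the bottom of the members' covariation. Each is written 5′ to 3′ on the gene's own strand, and capitals mark an NRF1, GABP or YY1 core.
Mrpl17, chr1:169575650-169575949, minus strand: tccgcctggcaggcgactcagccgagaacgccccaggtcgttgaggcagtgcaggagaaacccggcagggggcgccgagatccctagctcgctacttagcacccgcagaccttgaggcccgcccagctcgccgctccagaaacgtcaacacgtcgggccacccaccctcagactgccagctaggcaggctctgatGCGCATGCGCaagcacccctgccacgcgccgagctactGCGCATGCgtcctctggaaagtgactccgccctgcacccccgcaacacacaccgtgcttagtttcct
Mrps18b, chr20:2842756-2843055, plus strand: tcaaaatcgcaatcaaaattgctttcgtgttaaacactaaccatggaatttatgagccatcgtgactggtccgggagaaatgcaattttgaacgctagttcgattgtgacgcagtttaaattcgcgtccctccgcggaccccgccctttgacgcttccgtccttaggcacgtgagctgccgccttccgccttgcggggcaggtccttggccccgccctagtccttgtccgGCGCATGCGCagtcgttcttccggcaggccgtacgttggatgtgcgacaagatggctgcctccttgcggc
Mrps27, chr2:32473954-32474253, plus strand: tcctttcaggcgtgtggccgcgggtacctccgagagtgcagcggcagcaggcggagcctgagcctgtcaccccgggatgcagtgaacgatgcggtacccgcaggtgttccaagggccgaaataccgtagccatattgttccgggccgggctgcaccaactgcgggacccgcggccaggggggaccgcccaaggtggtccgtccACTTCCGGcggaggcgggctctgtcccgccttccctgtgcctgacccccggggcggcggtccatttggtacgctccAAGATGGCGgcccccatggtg
Mrpl46, chr1:142116981-142117280, minus strand: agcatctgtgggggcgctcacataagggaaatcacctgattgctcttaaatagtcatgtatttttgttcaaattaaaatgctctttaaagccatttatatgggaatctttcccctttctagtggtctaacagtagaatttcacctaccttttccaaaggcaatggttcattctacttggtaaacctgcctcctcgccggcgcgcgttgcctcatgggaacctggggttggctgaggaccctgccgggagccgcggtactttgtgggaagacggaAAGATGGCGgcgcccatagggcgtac
Mrpl12, chr10:106256496-106256795, plus strand: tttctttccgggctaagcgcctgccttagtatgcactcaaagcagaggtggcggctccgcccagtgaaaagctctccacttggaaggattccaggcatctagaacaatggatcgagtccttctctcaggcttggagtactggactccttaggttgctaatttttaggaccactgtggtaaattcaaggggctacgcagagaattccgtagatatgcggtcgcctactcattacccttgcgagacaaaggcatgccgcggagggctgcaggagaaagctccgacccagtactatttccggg
Mrps2, chr3:32200827-32201126, plus strand: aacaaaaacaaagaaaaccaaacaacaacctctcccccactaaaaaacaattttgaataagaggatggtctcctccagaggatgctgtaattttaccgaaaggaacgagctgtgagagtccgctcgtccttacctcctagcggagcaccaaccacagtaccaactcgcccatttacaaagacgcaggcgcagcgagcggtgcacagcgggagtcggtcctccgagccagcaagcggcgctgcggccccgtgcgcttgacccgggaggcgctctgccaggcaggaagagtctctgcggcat
Positions are counted from 0 at the annotated start, with bases before it negative. In Mrpl17 the overlapping NRF1 cores begin at -55 and -53 and a further one at -17, and in Mrps18b they begin at -20 and -18. In Mrps27 the GABP core begins at -47 and the YY1 core at 29. In Mrpl46 the YY1 core begins at 24. The windows of Mrpl12 and Mrps2 hold none of the 3 cores. Over all matches in members, the YY1 core began between -17 and 29, the NRF1 core between -132 and -17 and the GABP core between -140 and 16.

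Head-to-head neighbours, coding genes that start on opposite strands within 500 bases of each other and point away, were found for 14 of the 59 members (23.7%). Among all 19005 coding genes with a window, measured here or not, the share was 5.84%. No share is given for measured genes alone. Mrpl46 and Mrps11 are neighbours of this kind, so a large and a small subunit protein share 1 intergenic stretch. Over the 12 livers their correlation was 0.33. Mrpl47 faces Ndufb5, a subunit of complex I, with r = 0.76, and Mrpl32 faces Psma2, a proteasome subunit, with r = 0.46. Mrps18c faces Helq, a DNA helicase, with r = -0.73, and Mrpl51 faces Ncapd2, a condensin subunit, with r = -0.40. The median over the 11 measured partners was 0.33, with the pair of members counted from each side, and 8 of the 11 were above 0. For comparison, the median correlation was 0.43 over all pairs of the 73 members and 0.01 over all pairs of genes. These differences were not tested.

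The values are the authors' deposited scores. Their levels resemble log2 intensities, but differences between livers are far smaller than log2 intensities give, so no fold change is reported. The members' mean scores ran from 8.22 (Mrps27) to 11.57 (Mrpl15), with medians of 10.09 in the large and 9.92 in the small subunit, beside 8.00 over all genes. Mrpl15, Mrpl17 (11.25) and Mrps18b (11.10) were the brightest, and Mrps27, Mrpl38 (8.41) and Mrpl48 (8.45) the dimmest. Probe sets differ in how well they bind, so this order is not an order of RNA amounts. The standard deviation of a member over the 12 livers had a median of 6.05e-06, beside 7.35e-06 over all genes. It ran from 4.52e-07 in Mrpl54 to 0.000469 in Mrpl49. Values below are therefore standardised: each is given in standard deviations (SD) of that gene over the 12 livers, measured from its own mean.

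In the deposited scores the members varied together between livers, across both diets. In sugar mix replicate 1, 70 of the 73 members were above their own mean, with a median of 1.29 SD. In sugar mix replicate 2, 60 members were above, with a median of 0.86. At the other end, 65 members were below their mean in maple syrup replicate 5, with a median of -0.97, and 60 were below in sugar mix replicate 6, with a median of -0.91. The remaining sugar mix livers had medians of -0.30, -0.35 and 0.04, and the remaining maple syrup livers 0.50, 0.09, -0.53, 0.17 and 0.32. Each diet thus held a liver with most members low, the 2 livers with the highest medians were both fed sugar mix, and the diets overlapped.

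**Figure D1:**
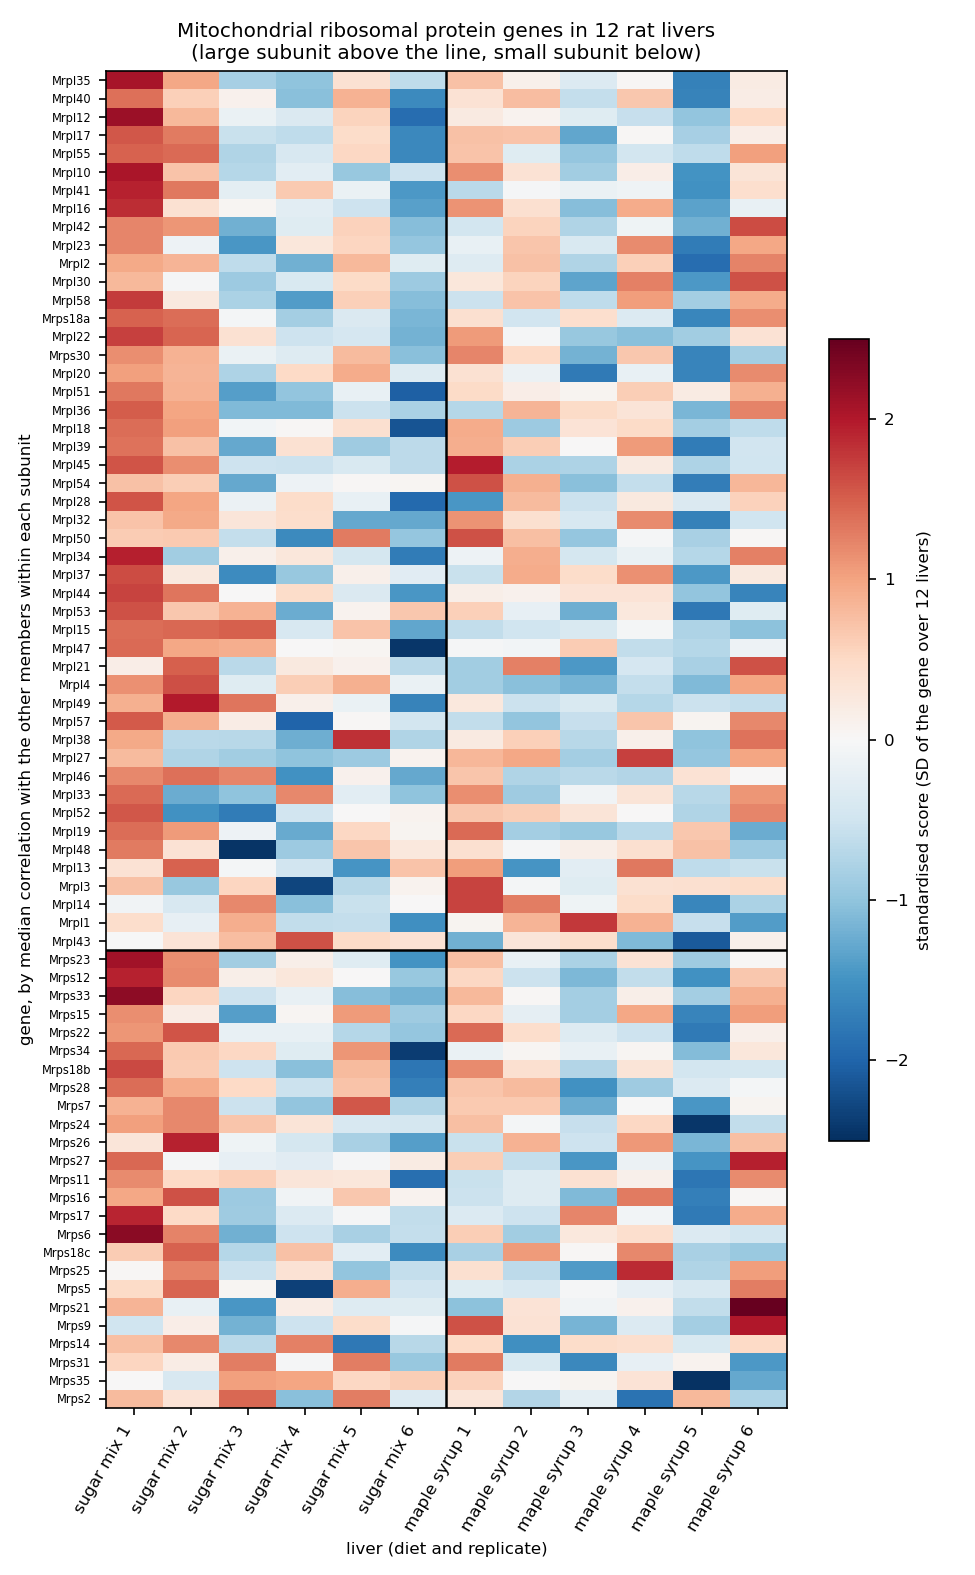
Standardised score (colour, in SD of each gene over 12 livers) of the 73 members in each liver, with large subunit genes above the horizontal line, small subunit genes below it and the diets divided by the vertical line. Within each subunit genes are ordered by their median correlation with the other members; the columns of sugar mix 1 and 2 are mostly red and those of sugar mix 6 and maple syrup 5 mostly blue, less so in the genes at the bottom of each block.

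**Figure D2:**
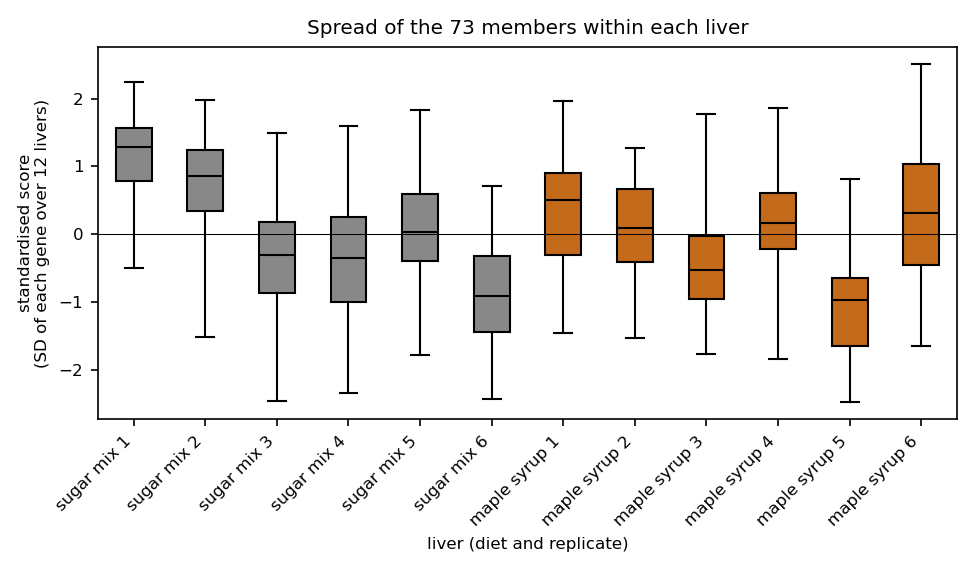
Distribution of the 73 members' standardised scores within each liver, in SD of each gene over 12 livers, grey for sugar mix and orange for maple syrup. Boxes span the quartiles, the line is the median and whiskers reach the lowest and highest member; medians run from -0.97 in maple syrup 5 to 1.29 in sugar mix 1.

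Over the 2628 pairs of members the median Pearson correlation across the 12 livers was 0.43, with quartiles of 0.21 and 0.60. This value depended on the scaling of the arrays. It was 0.12 after quantile normalization, which left 4 members constant. It was 0.98 after median centring, which adds array shifts wider than the median range of a member. In the deposited scores the median over all pairs of the 14217 genes was 0.01, with quartiles of -0.23 and 0.24. No such median over all genes is given here after either scaling, so the members' 0.12 and 0.98 stand without a comparison. Of the member pairs 89.5% were above 0 and 39.5% above 0.5, against 50.6% and 6.4% of all pairs. The first principal component held 44.6% of the members' variance, beside 16.2% for all genes. These correlations are descriptions over 12 livers that share 1 set of arrays, and no p is given for them. Among the 9952 genes left after the dimmest 30% were removed the median was also 0.01. With residuals from the diet means the members' median was 0.45. It was 0.54 within sugar mix and 0.39 within maple syrup, each over 6 livers.

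With each liver left out in turn the median lay between 0.35 and 0.46. Without sugar mix replicates 1 and 2 it was 0.31, and without these and sugar mix replicate 6 and maple syrup replicate 5 it was 0.15. Both sets were picked after the values were seen, as extremes of the very measure described. Removing such extremes can lower a correlation, and how much of the fall comes from this choice was not tested.

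By subunit and evolutionary origin this median took like values. It was 0.43 within the large subunit, 0.41 within the small subunit and 0.44 between them. Among the 44 members with a bacterial counterpart it was 0.43, among the 29 found only in mitochondria 0.42, and between these classes 0.43. Across members, a gene's median correlation had a Spearman correlation of 0.03 with the width of its score's spread and 0.21 with its level, as a description across genes, which are not independent.

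**Figure D3:**
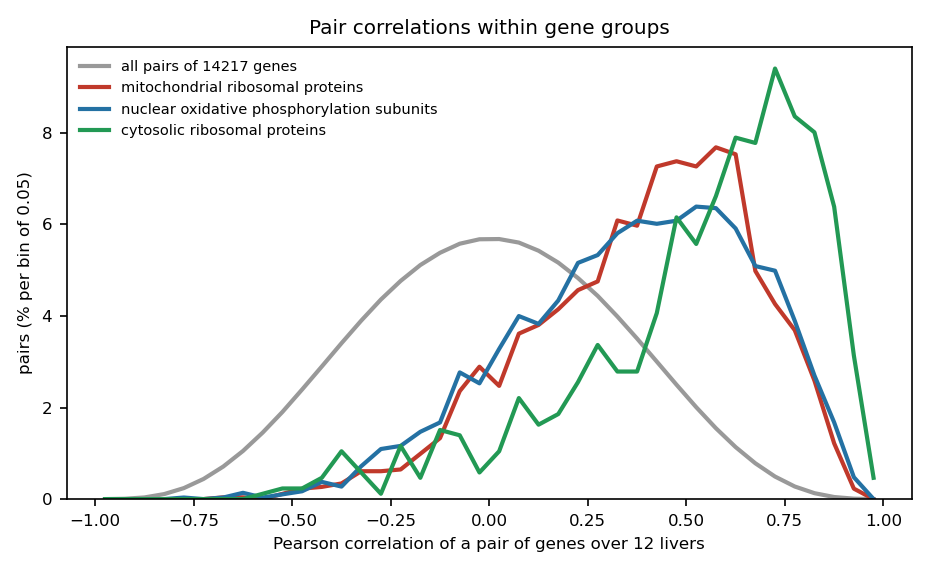
Distribution of Pearson correlations of gene pairs over 12 livers, as percent of pairs per bin of 0.05, for all pairs of 14217 genes and within 3 groups. The members' curve is shifted to the right of all pairs, with a median of 0.43, close to that of oxidative phosphorylation subunits and to the left of cytosolic ribosomal proteins.

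The 3 members with the highest median correlation were all of the large subunit, and the highest of the small subunit was Mrps23 with 0.60. Mrpl35, a large subunit protein with a bacterial counterpart, had the highest median correlation with the other members, 0.65, and correlated above 0.5 with 49 of them. Its sugar mix livers had -1.0 as the lowest value, -0.13 as the median and 2.06 as the highest, and its maple syrup livers -1.68, 0.08 and 0.73. Its highest liver was sugar mix replicate 1 and its lowest maple syrup replicate 5, and the diets overlapped. Mrpl40 followed with a median correlation of 0.61, with the same highest and lowest livers. A second, dimmer probe set of Mrpl40 had a median correlation with the members of 0.2 and correlated with the used one at -0.05. Mrpl12 is part of the stalk that recruits translation factors, and also binds the mitochondrial RNA polymerase. Its median correlation was 0.60, and its livers ran from -1.90 to 2.14 with sugar mix (median 0.19) and from -0.98 to 0.49 with maple syrup (median -0.11). All maple syrup values of Mrpl12 lay inside the sugar mix range. A second, dimmer probe set of Mrpl12 correlated with it at 0.79.

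The closest pair was Mrpl10, which anchors the stalk that holds Mrpl12, with Mrps33 of the small subunit (r = 0.93, Spearman 0.87). A second probe set of Mrpl10, with a mean score of 9.36 beside 9.59, correlated with the used one at 0.28. The median correlation with the members was 0.25 for that probe set and 0.58 for the used one. Mrpl17 and Mrps18b, which both hold the NRF1 core printed above, had r = 0.91 (Spearman 0.92), and Mrpl12 and Mrps34 had r = 0.90 (Spearman 0.86). These pairs were picked as high from 2628, so their values are expected to be too large. Over the members with a window, the median of a gene's correlation with the others was 0.52 in the 5 with an NRF1 core and 0.45 in those without. It was 0.35 with and 0.47 without a GABP core, and 0.49 with and 0.45 without a YY1 core.

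A few members did not follow the group. Mrps2, a small subunit protein with a bacterial counterpart, was the only member with a median correlation below 0, at -0.02, and 40 of its 72 correlations were negative. Its sugar mix livers ran from -1.04 to 1.44 with a median of 0.57, and its maple syrup livers from -1.84 to 0.82 with a median of -0.49. The highest liver was sugar mix replicate 3 and the lowest maple syrup replicate 4, neither of which was an extreme of the group. The other 2 probe sets of Mrps2 correlated with the first at 0.60 and 0.70 and had median correlations with the members of 0.04 and -0.12, so all 3 probe sets had a median near 0. Mrpl43 had a median correlation of 0.06, with maple syrup replicate 5 its lowest liver (-2.10) and sugar mix replicate 4 its highest (1.60). Mrps35 had 0.07 and was also lowest in maple syrup replicate 5, at -2.47. The lowest correlation of all was that of Mrpl3 with Mrpl43, -0.66 (Spearman -0.59). Below 0.2 lay 9 members in all.

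The members with known special tasks lay within the range of the rest. Mrpl58, which frees stalled peptides from the ribosome, had a median correlation of 0.54, and its livers ran from -1.39 to 1.75 with sugar mix (median -0.27) and from -0.85 to 1.04 with maple syrup (median 0.09). Mrpl45, which ties the ribosome to the inner membrane, had 0.48. Mrpl45 ran from -0.66 to 1.57 with sugar mix (median -0.45) and from -0.79 to 1.97 with maple syrup (median -0.64). Its highest liver was maple syrup replicate 1, and both diets held high and low livers. Mrpl44, which has a fold related to ribonuclease III, had a median correlation of 0.42. Mrpl27, whose bacterial counterpart reaches into the catalytic centre, had 0.34, with maple syrup replicate 4 highest (1.70) and sugar mix replicate 4 lowest (-1.01).

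In the small subunit, Mrps12 of the decoding centre had a median correlation of 0.58, and ran from -0.94 to 1.93 with sugar mix (median 0.21) and from -1.52 to 0.67 with maple syrup (median -0.57). Mrps7, which binds the small ribosomal RNA, had 0.50, Mrps28 0.50 and Mrps27, a protein of the pentatricopeptide repeat family, 0.48. Further, dimmer probe sets of Mrps27 had -0.07 and 0.28. Mrps12 had the same extremes as the whole group, sugar mix replicate 1 and maple syrup replicate 5. The mammalian genome holds 3 relatives of 1 bacterial protein in Mrps18a, Mrps18b and Mrps18c, of which Mrps18a is built into the large subunit. Their median correlations with the members were 0.54, 0.52 and 0.36. Further, dimmer probe sets of Mrps18c had 0.52 and 0.07, so its place beside its relatives depends on the probe set. Mrps18a was lowest in maple syrup replicate 5 (-1.64), whereas Mrps18b and Mrps18c were lowest in sugar mix replicate 6 (-1.81 and -1.58).

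Further probe sets, 24 in all for 18 members, were by the rule dimmer than those used. Their median correlation with the used probe set was 0.50, with 12 above 0.5 and 3 below 0. The widest disagreement was in Mrpl52, whose second probe set correlated at -0.51 with the one used. For Mrpl40 and Mrps24 the second probe sets correlated at -0.05 and -0.01. Low values were also found for Mrpl37 (0.03 and 0.27), Mrps14 (0.06), Mrps9 (0.15), 1 probe set of Mrps18c (0.26) and Mrpl10 (0.28). The sign of the difference between the diets was that of the used probe set in 18 of the 24. A gene's place in the pattern therefore depends on its probe set in such cases.

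Other genes of mitochondrial translation correlated with the members to differing degrees. The 6 listed genes of ribosome proteins with other names all had a positive median correlation with the members, with a median of 0.47 over the genes. Chchd1, a small subunit protein, was highest at 0.58 and Ptcd3, another one, lowest at 0.05. Of the 24 measured ribosome assembly factors 22 were positive, with a median of 0.34. Mtg1, a GTPase that checks the maturing large subunit, was highest at 0.62. Of 10 translation factors 9 were positive (median 0.31), among them Tufm, the elongation factor that delivers transfer RNA, at 0.38. Of 17 mitochondrial aminoacyl-tRNA synthetases 13 were positive (median 0.28), and of 14 genes of mitochondrial DNA transcription and RNA 12 were (median 0.28). Tfam, which packages mitochondrial DNA, was at -0.15.

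The nuclear regulators of mitochondrial genes had values on both sides of 0. Of 9 measured, 4 had a positive median correlation, with a median of -0.08. Nrf1 was at 0.05, Gabpa at 0.10, Ppargc1a at -0.12, Yy1 at -0.08 and Esrra at 0.40. The 77 nuclear subunits of oxidative phosphorylation had a median of 0.36 with the members and 68 were positive, and the 42 cytosolic ribosomal proteins had 0.26 with 34 positive. The cytosolic ribosomal proteins were more tightly tied to each other, with a median pair correlation of 0.61, beside 0.40 for the oxidative phosphorylation subunits. Their highest livers differed: the median of the cytosolic proteins was 1.38 in maple syrup replicate 6 and 1.12 in sugar mix replicate 1, and -0.13 in sugar mix replicate 2, where the members stood at 0.86. None of these differences between groups was tested.

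**Figure D4:**
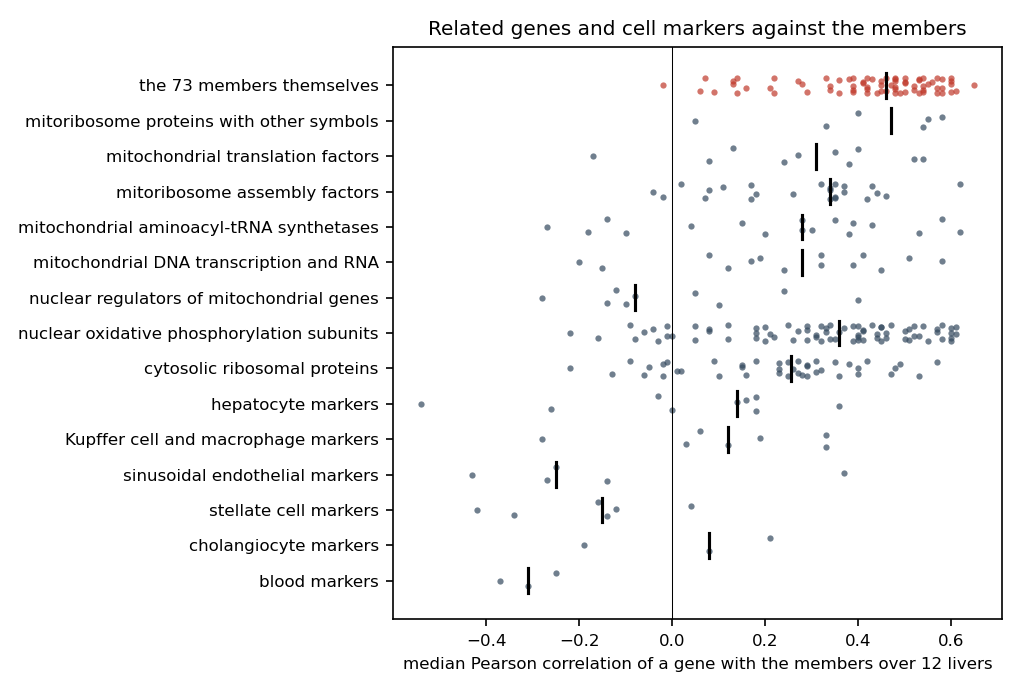
Median Pearson correlation of each gene with the 73 members over 12 livers, by gene list, where a point is a gene and the vertical bar is the median of its list. Proteins of the ribosome with other symbols lie with the members (medians of 0.47 and 0.46), nuclear regulators lie between -0.28 and 0.40, and the 3 blood markers between -0.37 and -0.25.

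Several values that describe the whole array moved with the members. In the livers with the highest member medians, sugar mix replicates 1 and 2, the median standardised value over all genes was 0.15 and 0.17, against -0.10 to 0.03 in the other livers. It correlated with the members' liver median at 0.73 (Spearman 0.62). With it subtracted the median correlation between members was 0.39. The 3′ control probe set for GAPDH correlated with the members' liver median at 0.77 and the 5′ one at 0.62. Those for beta-actin correlated at 0.54 and 0.50, and those for hexokinase at 0.04 and 0.14. Among the 9 probe sets for bacterial and phage hybridization controls, which are not liver RNA, bioB-M correlated at 0.59, bioB-3 at 0.53 and bioC-3 at 0.49, and the lowest, cre-3, at -0.07. Those for the Bacillus dap, lys, phe and thr controls ran from -0.34 to 0.16. The array medians of the deposited scores correlated at -0.18. The part of input RNA, labelling or hybridization in the members' covariation was not tested.

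The tissue label was checked against markers. The 9 measured hepatocyte markers had scores between 12.32 and 15.21, far above the 8.00 that is the median of all genes, and their liver medians correlated with those of the members at 0.01. Blood markers, 3 measured, had negative median correlations with the members in all 3 genes, and their liver medians ran from -1.91 to 1.13 with sugar mix and from -0.88 to 1.53 with maple syrup. Of 5 sinusoidal endothelial markers 4 had negative median correlations, and of 6 stellate cell markers 5 did. Of 7 Kupffer cell and macrophage markers 6 had positive ones, with a median of 0.12, and 2 of 3 cholangiocyte markers did. The liver medians of these lists correlated with those of the members at -0.53 for sinusoidal endothelial, -0.49 for blood, -0.36 for stellate, 0.42 for Kupffer cell and macrophage and 0.36 for cholangiocyte markers. No marker had a score at 0, which this scale does not reach. Fewer cells of a type and less RNA per cell cannot be told apart in whole liver, and the part of cell makeup in the covariation was not tested.

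The comparison between the diets asked whether maple syrup, against sugars alone, went with another level of these genes. No member passed. With limma and Benjamini-Hochberg adjustment over all 14217 genes, 0 of 73 members were called at an adjusted p of 0.05, as were 0% of all genes, and the smallest adjusted p among members was 0.9999. At an unadjusted p of 0.05, 2 members were lower with maple syrup and 0 were higher, which is 2.74% of the members. Of all genes 4.33% reached this, 2.24% lower and 2.09% higher. In 0 members were the diets fully separated, beside 0.0985% of all genes.

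Sizes are given as Hedges' g, how far the maple syrup mean lay above the sugar mix mean, in standard deviations between animals of 1 diet. The median g of the members was -0.14, with quartiles of -0.39 and 0.15, beside -0.04 over all genes with quartiles of -0.39 and 0.32. Below 0 lay 49 of the 73 members (67.1%), beside 52.9% of all genes. By subunit, 30 of 48 large and 19 of 25 small subunit genes lay below 0. Within 0.5 of 0 lay 54 members, 15 were below -0.5 and 4 above 0.5. Since the members vary together, the count of 49 is not made of independent genes and follows a few livers. Without sugar mix replicate 1 it was 27, with a median g of 0.11, without sugar mix replicate 2 it was 32, and without both it was 17. Without maple syrup replicate 5 it was 35. After median centring of the arrays 3 members lay below 0, with a median g of 0.35, where all genes had 0.36. After quantile normalization, which left 4 members constant, 38 lay below 0, with a median g of -0.14, where all genes had -0.13. The sign of the group's median thus turned with single livers and with the scaling. Control probe sets also had a g between the diets. It ran from 0.46 to 1.35 for the Bacillus controls and from -1.02 to -0.52 for GAPDH and beta-actin. For hexokinase it ran from 0.41 to 0.72, and for the bacterial and phage hybridization controls from -0.36 to 0.2. The part of such array differences in the members' g was not tested.

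**Figure D5:**
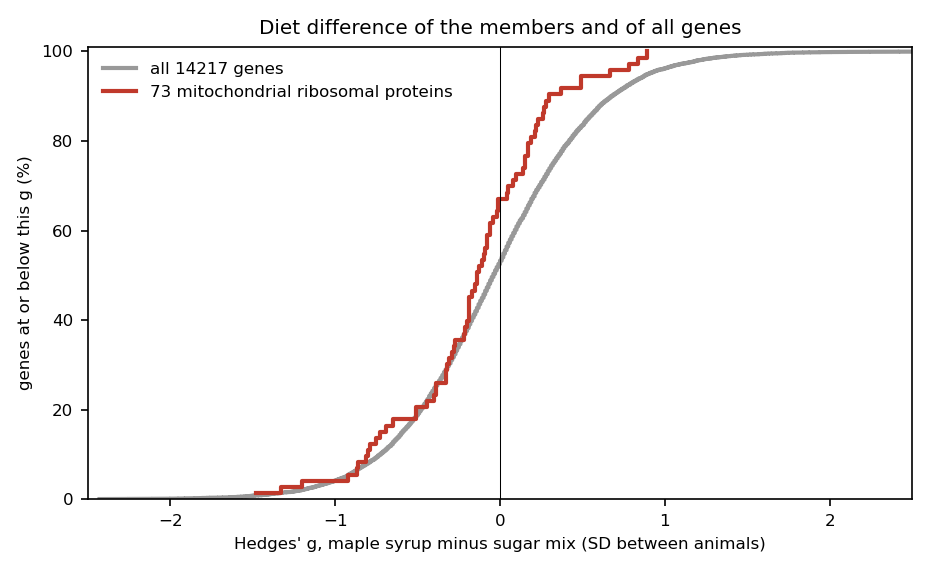
Share of genes at or below each Hedges' g, in SD between animals, for all 14217 genes (grey) and the 73 members (red), with maple syrup minus sugar mix on the horizontal axis from -2.5 to 2.5. The medians are -0.04 and -0.14; the curves run together below about -0.14 and the members' curve lies to the left above it, up to the highest member at 0.89, and genes beyond 2.5 are outside the axis.

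The members with the smallest p are described although none passed, and choosing them by p from the same livers makes their g an overestimate on average. Mrpl4, whose bacterial counterpart lines the exit tunnel, had sugar mix values from -0.30 to 1.61 with a median of 0.75. Its maple syrup values ran from -1.17 to 0.99 with a median of -0.96. The maple syrup liver was higher in 4 of 36 pairs of 1 liver of each diet, with g = -1.48 (95% interval -2.68 to -0.23). In limma the unadjusted p was 0.0294 and the adjusted p 0.9999. Maple syrup replicate 6 stood among the sugar mix livers, and the other 5 maple syrup livers were below all sugar mix livers. Mrpl43 had g = -1.33 (95% interval -2.49 to -0.11), with 5 of 36 pairs higher and an unadjusted p of 0.0294 in limma. Its maple syrup livers were divided, with 3 between -2.10 and -1.11 and 3 within the sugar mix range. Mrpl15 had g = -1.20 (95% interval -2.34 to -0.01), with 8 of 36 pairs higher; all its maple syrup livers were below 0, as were 2 sugar mix livers. Mrps35 had g = -0.92 (95% interval -2.02 to 0.22), which followed maple syrup replicate 5 and replicate 6 (-2.47 and -1.27).

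In the other direction the smallest p belonged to Mrpl51 (g = 0.78, 25 of 36 pairs higher), Mrpl3 (g = 0.84, 24 pairs), Mrpl52 (g = 0.67, 26 pairs) and Mrpl1 (g = 0.49, 24 pairs). All their 95% intervals included 0. Mrpl51 was narrow with maple syrup, from 0.07 to 0.88, and wide with sugar mix, from -2.04 to 1.32. Mrpl27 had the highest g of all members, 0.89 (95% interval -0.24 to 1.99), but a standard deviation of only 5.04e-07 in the deposited score, and its p in limma was 0.569. Of the 4 probe sets of Mrpl51, 3 had a positive g and 1 had -0.27. The second probe set of Mrpl52 had g = -0.65, opposite to the one used.

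The 95% intervals of the remaining named members all included 0. Mrps12 had g = -0.86 (95% interval -1.94 to 0.27) and Mrpl44 had -0.51. Mrps7 had g = -0.40, Mrps28 -0.39, Mrps27 -0.33, Mrpl12 -0.32, Mrpl35 -0.28, Mrpl45 -0.19, Mrpl17 and Mrps18a -0.14, and Mrpl40 and Mrps18c -0.08. Mrps18b had 0.08, Mrpl38 0.17, Mrpl58 0.19 and Mrpl48 0.22, and Mrps2 had -0.80 (95% interval -1.89 to 0.31). For a member near 0, such as Mrpl40, the 95% interval ran from -1.13 to 0.96, so with 6 livers of each diet differences of about 1 SD in either direction lie within it.

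Related genes of mitochondrial translation also gave no calls. None of 10 translation factors, 24 assembly factors, 17 aminoacyl-tRNA synthetases, 14 genes of mitochondrial DNA transcription and RNA, 6 ribosome proteins with other symbols and 9 nuclear regulators passed in limma. At an unadjusted p of 0.05 in limma, 2 synthetases (11.8%) and 1 assembly factor (4.17%) were lower with maple syrup. No gene of the other lists was lower, and 0 genes of these lists were higher. Of all genes 2.24% were lower and 2.09% higher. Vars2, the valine synthetase, had g = -1.33 (95% interval -2.49 to -0.11), Iars2, the isoleucine synthetase, -1.20 and Rpusd4, a pseudouridine synthase, -1.23. Mtrf1l, a release factor, had g = 0.81 with 30 of 36 pairs higher, and Malsu1, which binds the maturing large subunit, had 0.83. Gfm1, an elongation factor, had -0.74, Supv3l1, an RNA helicase, -0.85, Gabpb1, a partner of Gabpa, 0.89 and Myc 0.74, all with intervals that included 0. Tfam had g = 0.78 (95% interval -0.34 to 1.86), with 30 of 36 pairs higher. Among ribosome proteins with other symbols Gadd45gip1 had g = 0.46 and Ptcd3 -0.42. The median g was -0.31 for the synthetases, -0.26 for the assembly factors, -0.24 for the translation factors and 0.27 for the regulators. The oxidative phosphorylation subunits had a median g of -0.26 with 60 of 77 below 0, and the cytosolic ribosomal proteins 0.17 with 16 of 42 below 0; whether these differ from the members was not tested.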

How the data were processed

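Per the labels' protocols, 2 ug of liver RNA was made into biotinylated cRNA for an Affymetrix array. The deposited table holds the authors' processed score for 31099 probe sets on 12 arrays; how probes were summarised and normalised is "not given in the sources used here". Scores lay between 5.57 and 15.2. Array medians differed by 0.000132, more than the median range of a member over the arrays (1.86e-05).

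Of the probe sets 20826 had 1 gene symbol in the platform annotation, updated through RefSeq (assembly GRCr8), 436 had several, 9780 are unnamed here and 57 controls were left out. The brightest probe set stood for each of 14217 genes, with no further normalization or filter. The diet comparison used limma 3.58.1 (R 4.3.3; lmFit, eBayes with an intensity trend, prior degrees of freedom 0.649, two-sided, Benjamini-Hochberg). Intervals of g come from the noncentral t distribution (scipy 1.17.1). Correlations are Pearson's over 12 livers, described without a test. For this comparison 14217 genes were simulated with normal noise independent between genes, which leaves out the correlation between real genes. In these simulated data limma recovered 52.5% of 200 genes shifted by 3 SD, with 3 false calls. No 2 arrays agreed closely (highest correlation of deviations from gene means 0.18).

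Named members were 12 fixed genes and those with extreme level, p or median correlation; of related lists, the 2 with the smallest p. Further genes (among members Mrpl10 and Mrps33, Mrps23, Mrps34, Mrps11, Mrps24, Mrpl32, Mrpl47, Mrpl49 and Mrpl54, among others Chchd1, Mtg1, Tufm and the regulators) were chosen after their values were seen. So were the members Mrpl37, Mrps9 and Mrps14. The members and lists were chosen with earlier results of these data known. Figures were drawn with matplotlib 3.10.9. Nothing in the labels gives a batch. The p-values rest on the spread between these animals, which limma moderates toward an intensity trend fitted over all genes. Hedges' g and its intervals use each gene's own spread only, so p and g can rank members differently. Alternatives were other probe set rules, quantile normalization, median centring, a filter, a floor, eBayes with no trend or robust, weighted arrays, a replicate block and each liver left out.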

Additional observations from a re-analysis of the deposited data

Results flagged for a closer look

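Each of 26 named members and the members' median was looked at in each diet for a liver far from the other 5, which gave 54 combinations and 3 cases, where chance gives about 2.7. In Mrpl4, maple syrup replicate 6 stood at 0.99 SD, with the other 5 maple syrup livers at -0.59 or lower. In Mrpl45, maple syrup replicate 1 stood at 1.97 SD, the highest liver of that gene. In Mrps27, sugar mix replicate 1 stood at 1.43 SD, while the other 5 sugar mix livers lay between -0.29 and 0.21. The members' median over all 73 genes had no such liver in either diet.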

How the results depend on the processing

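The counts of called genes and called members stayed at 0 in limma in all 23 fits, with 616 genes at an unadjusted p of 0.05 in the reported one. The labels do not say whether equal replicate numbers pair livers of the 2 diets. Deviations of same-numbered livers correlated between -0.033 and 0.12, and for 1 of 6 numbers a liver correlated best with its own number. These values cannot show whether the livers were paired by design. With the replicate block 0 genes were called, the median g was -0.09 and the median correlation 0.49. Leaving out each liver in turn, the median g ran from -0.31 to 0.11 and the count of members below 0 from 27 to 56. Median centring turned the median g to 0.35, with all genes at 0.36. Under quantile normalization it was -0.14, with all genes at -0.13 and 38 members below 0. The median correlation between members, 0.43 as reported, was 0.98 under median centring, whose added array shifts exceed the median range of a member. Under quantile normalization, which left 4 members constant, it was 0.12, and the cause was not tested. Chosen after seeing the data, it was 0.31 without sugar mix replicates 1 and 2, and 0.15 without these and sugar mix replicate 6 and maple syrup replicate 5. The other alternatives moved it by less than its jackknife standard error of 0.11, and it lay between 0.35 and 0.46 with each liver left out.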

Other observations

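The genes whose values followed the members' mean most closely over the 12 livers were picked from all 14144 genes that are not members, so their correlations are expected to be too large and are given with no test. Mtg1, the assembly GTPase of the large subunit that is also among the assembly factors, was highest of all with r = 0.96 (Spearman 0.99). Polr2k, a small subunit shared by the nuclear RNA polymerases, had 0.94, Tarbp2, a partner of Dicer, 0.92, Hspe1, the mitochondrial co-chaperonin, 0.92 and Eif2d, a cytosolic translation factor, 0.92. Il23a (0.93) and Gnat1 (0.93), whose products act in immune cells and in the retina, had low scores of 6.72 and 6.90. In the opposite direction Kif2a, a kinesin, and Ube2h, a ubiquitin-conjugating enzyme, had r = -0.93, and Asxl1 and Mbtd1, chromatin proteins, had -0.92 and -0.91.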
